A study of Mus musculus with 22 samples.

Results

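The 9 genes described here make, sense, or break down prostaglandins: Pla2g4a, Ptgs1, Ptgs2, Ptges, Ptgds, Ptger1, Ptger3, Ptger4, and Hpgd. They were chosen by symbol from the 32858 genes counted in mouse kidney, with earlier results of these data known. Each of the 9 had enough reads to be tested. Kidneys of 22 male C57Bl6/J mice aged 8 to 10 weeks were profiled by RNA-Seq, with 1 library per mouse. The vehicle group had 5 mice. A second group of 6 mice received KW6002 (istradefylline, an adenosine receptor antagonist) at 3 mg/kg by daily intraperitoneal injection from day -5 to day 7, in a carrier of DMSO, cremophor, and saline. The cisplatin group of 5 mice received 6 daily intraperitoneal injections of cisplatin, a platinum drug that damages the kidney, at 3 mg/kg from day 0. The co-treated group of 6 mice received both drugs on these schedules. Cisplatin-treated kidneys were taken 72 hours after the last cisplatin injection. The sources do not state whether the cisplatin group also received the KW6002 carrier.

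Prostaglandins are short-lived lipids that act close to the cell that makes them. Phospholipases free arachidonic acid from membranes, cyclooxygenases turn it into an unstable intermediate, terminal synthases shape that intermediate into a given prostaglandin, and receptors on the cell surface read it. In the kidney, prostaglandin E2 is best known for its control of blood flow and of salt and water transport in the thick ascending limb and collecting duct, and the inducible cyclooxygenase is known from the macula densa, a patch of cells that senses salt.

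Totals ran from 26471762 to 40510754 counts per library. Levels are given as CPM, counts scaled to a common library total with TMM factors, and changes as log2 fold changes with their standard errors (SE) from edgeR's quasi-likelihood test over 17131 genes and all 22 libraries, with p values adjusted over those genes by the Benjamini-Hochberg method. A gene passed at an adjusted p below 0.05. The labels carry numbers in 2 series, the 300s and the 500s, and do not say what the numbers stand for. The 300s hold 3 vehicle and 3 KW6002 mice, and every mouse given cisplatin is in the 500s. The kidney's own cell types were present: markers of proximal tubule, thick ascending limb, collecting duct, podocytes, and endothelium were all detected. Their levels moved with treatment: all 6 proximal tubule markers fell after cisplatin, from sums of 14032 to 15073 CPM in vehicle to 1427 to 2651 CPM, and 5 of them rose to co-treatment, with sums of 5318 to 8209 CPM. All 3 distal convoluted tubule markers fell as well, from sums of 1589 to 1654 CPM to 45.6 to 90.7 CPM, with 156 to 383 CPM in co-treated kidneys. The part of these shifts in the members' falls and rises was not tested. Vehicle replicates 1 and 2, both of the 300s, stood apart from the other vehicle kidneys. Their 4 thick ascending limb markers summed to 4723 and 5094 CPM against 6805 to 7829 in the other 3, and their 7 fat cell markers to 783 and 1432 against 158 to 348. Values without these 2 libraries, and within the 500s alone, are given where they changed a call or moved a value by a large factor. In bulk tissue, fewer cells of a type and less RNA per cell cannot be told apart.

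The promoters of 4 members are shown because they form 2 pairs of related genes whose mRNA levels differed in direction or size after cisplatin: both cyclooxygenases, and the receptors Ptger3 and Ptger4. Each run is the 250 bases before the RefSeq start on GRCm38.p6, 5′ to 3′ on the gene's own strand. Capitals mark matches, on either strand, to the letters searched: TATAAA of the TATA box, TGACGTCA of the cyclic AMP response element, its core TGACG without the rest, TGACTCA of the AP-1 site, CACGTG of the E-box, GGGCGG of the GC box (printed as its reverse complement where it lies on the other strand), and TTGCGCAA.
Ptgs1, chr2:36230176-36230425, plus strand: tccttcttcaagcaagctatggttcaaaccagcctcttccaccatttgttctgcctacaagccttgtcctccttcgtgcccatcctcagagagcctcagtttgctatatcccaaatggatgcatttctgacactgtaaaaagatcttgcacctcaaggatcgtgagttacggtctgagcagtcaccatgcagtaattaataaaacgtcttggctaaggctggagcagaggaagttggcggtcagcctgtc
Ptgs2, chr1:150099781-150100030, plus strand: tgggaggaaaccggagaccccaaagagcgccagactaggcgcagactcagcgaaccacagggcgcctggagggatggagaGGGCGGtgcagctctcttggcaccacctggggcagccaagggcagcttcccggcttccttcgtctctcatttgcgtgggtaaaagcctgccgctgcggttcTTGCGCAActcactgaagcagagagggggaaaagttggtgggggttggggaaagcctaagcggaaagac
Ptger3, chr3:157566626-157566875, plus strand: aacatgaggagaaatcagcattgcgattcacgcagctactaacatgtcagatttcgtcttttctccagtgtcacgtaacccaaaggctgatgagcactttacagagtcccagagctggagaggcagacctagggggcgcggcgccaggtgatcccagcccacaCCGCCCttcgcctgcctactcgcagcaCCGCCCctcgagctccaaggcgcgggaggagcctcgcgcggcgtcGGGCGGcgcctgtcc
Ptger4, chr15:5244188-5244437, minus strand: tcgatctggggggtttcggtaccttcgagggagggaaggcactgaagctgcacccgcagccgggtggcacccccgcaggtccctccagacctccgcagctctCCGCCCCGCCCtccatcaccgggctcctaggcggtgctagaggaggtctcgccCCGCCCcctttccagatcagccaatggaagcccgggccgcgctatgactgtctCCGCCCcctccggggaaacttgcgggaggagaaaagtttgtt
Ptgs1 held none of the letters searched, and 48.0% of its window was G or C. The Ptgs2 window was 61.6% G or C and held GGGCGG once and TTGCGCAA once. TTGCGCAA, a palindrome bound by C/EBP factors, occurred in 0.164% of all 32851 windows of this length, and GGGCGG in 32.7%. Ptger3 held GGGCGG 3 times and Ptger4 held it 4 times, of which 2 matches shared a base. RefSeq windows were found for 8 of the 9 members, and the exception was Ptger1. These matches describe letters and not binding.

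Cisplatin changed the mRNA level of all 9 members against vehicle. Pla2g4a, Ptgs1, Ptgs2, Ptges, and Ptger4 rose, and Ptgds, Ptger1, Ptger3, and Hpgd fell. That count has to be read against a kidney in which 70.5% of the genes tested passed in this comparison, 34.6% higher and 35.9% lower. The median log2 fold change of the 9 was 0.58, against -0.01 over all genes tested. At a stricter call, which asks for a log2 fold change beyond 1 and an adjusted p below 0.01, 1 member was higher (Ptgs2) and 2 were lower (Ptgds and Ptger3), where 24.1% of genes were called, 12.1% higher and 12.1% lower. For 7 members every cisplatin library lay on 1 side of every vehicle library, as for 55.3% of genes. Ptger1 and Hpgd overlapped. The plot of the 9 genes by kidney shows these levels.

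**Figure D1:**
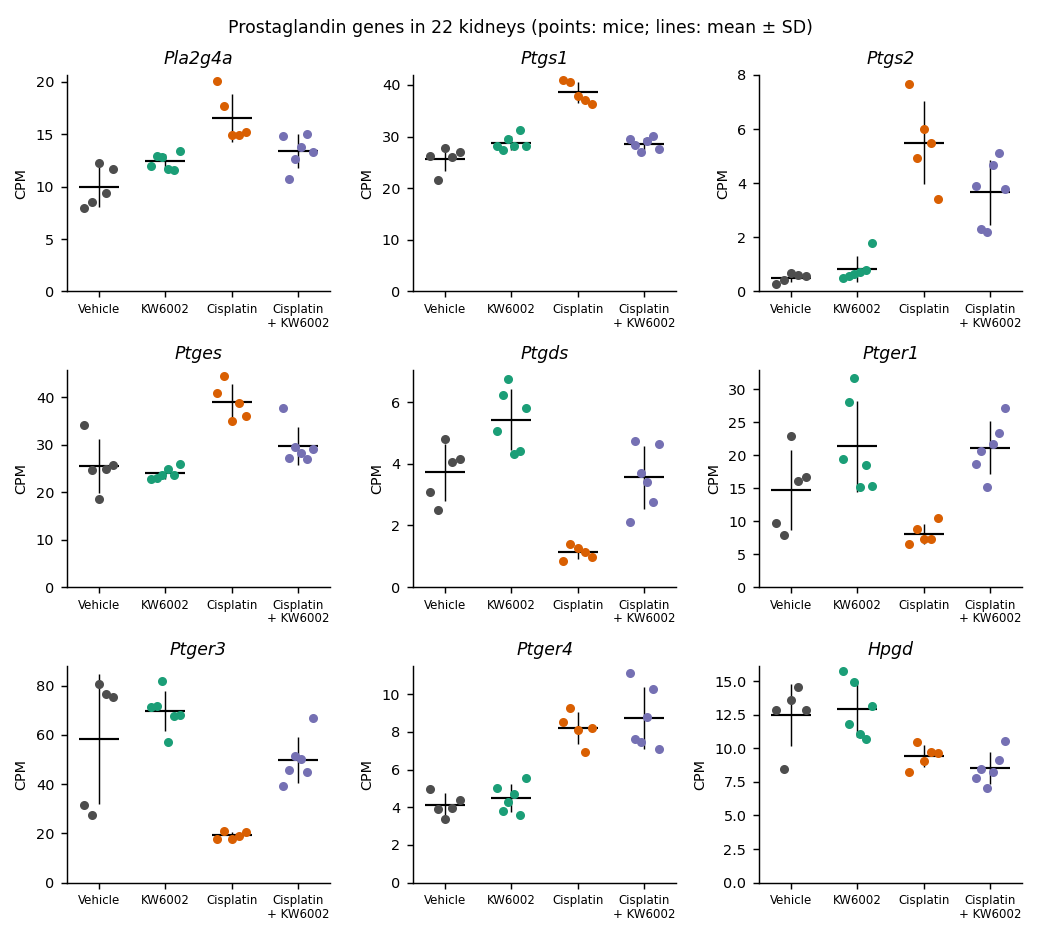
mRNA level of each prostaglandin gene in CPM (vertical axis, linear, from 0) in 5 vehicle, 6 KW6002, 5 cisplatin, and 6 co-treated kidneys. Each point is a mouse, the horizontal line the group mean, and the vertical line 1 SD. Ptgs2 lies between 3.43 and 7.65 CPM in the cisplatin group and at most at 0.672 CPM in the vehicle group, and Ptger3 splits the vehicle group into 2 low and 3 high kidneys.

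Pla2g4a encodes the cytosolic phospholipase that frees arachidonic acid from membranes. Its level was 7.97, 8.58, 12.2, 9.40, and 11.7 CPM in the vehicle kidneys and 20.1, 17.7, 14.9, 14.9, and 15.2 CPM in the cisplatin kidneys, numbered from replicate 1 to 5. The groups did not overlap, and the log2 fold change was 0.73 (SE 0.11, adjusted p = 5.84e-06). The co-treated kidneys ran from 10.7 to 15.0 CPM with a median of 13.6 and overlapped the cisplatin group by a narrow margin. Pla2g4a fell by 0.31 on the log2 scale from cisplatin to co-treatment (SE 0.11, adjusted p = 0.0187) and was above vehicle by 0.42 (SE 0.11, adjusted p = 0.0023). The fall did not pass without cisplatin replicate 1 (log2 fold change -0.23, adjusted p = 0.0819) or without co-treated replicate 2 (-0.25, adjusted p = 0.0512). The excess over vehicle did not pass within the 500s, where it was 0.34 (adjusted p = 0.0541), nor without vehicle replicates 1 and 2, where it was 0.27 (adjusted p = 0.0526). The gene lies on chromosome 1 at 149829618 to 149961290 (GRCm38, minus strand), and 138740 bases separate it from Ptgs2.

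Ptgs1, the cyclooxygenase that most tissues make at a steady level, rose by a modest amount with little scatter. Vehicle kidneys held 26.2, 21.6, 27.9, 26, and 26.9 CPM and cisplatin kidneys 41, 40.5, 37.8, 37.2, and 36.3 CPM. The lowest cisplatin kidney was above the highest vehicle kidney, and the log2 fold change was 0.58 (SE 0.06, adjusted p = 7.1e-09), or 1.5-fold. Co-treated kidneys ranged from 27.0 to 30.1 CPM with a median of 28.8, and each was below each cisplatin kidney. The log2 fold change from cisplatin to co-treatment was -0.43 (SE 0.06, adjusted p = 8.88e-07). Against vehicle the co-treated group was higher by 0.15 (SE 0.06, adjusted p = 0.0234), with overlapping groups. This last difference did not pass within the 500s (0.11, adjusted p = 0.175), without vehicle replicates 1 and 2 (0.09, adjusted p = 0.184), with the number series (0.12, adjusted p = 0.122) or the fat marker level (0.11, adjusted p = 0.198) as a covariate, without vehicle replicate 2 alone (0.10, adjusted p = 0.0935), or without co-treated replicate 5 (0.14, adjusted p = 0.0512).

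Ptgs2, the cyclooxygenase that inflammation and injury induce, had the largest log2 fold change of the 9 after cisplatin and the fewest reads in the vehicle group. Vehicle libraries held 9 to 20 Ptgs2 reads each, or 0.291, 0.441, 0.672, 0.599, and 0.553 CPM. Cisplatin libraries held 121 to 287 reads, or 7.65, 4.92, 6.0, 5.48, and 3.43 CPM. All cisplatin kidneys exceeded all vehicle kidneys, and the log2 fold change was 3.42 (SE 0.33, 95% interval 2.72 to 4.12, adjusted p = 4.26e-09), or 10.7-fold. Within the 500s it was 3.24 (adjusted p = 8.68e-06), and without vehicle replicates 1 and 2 it was 3.17 (adjusted p = 4.19e-07). The 3 macula densa markers fell after cisplatin and summed to 9.98 to 15.5 CPM in vehicle, 5.45 to 7.96 CPM in cisplatin, and 9.38 to 11.5 CPM in co-treated kidneys. From cisplatin to co-treatment 1 of the 3 rose, with a median log2 fold change of 0.17. In co-treated kidneys 2 of the 3 were lower than in vehicle, with a median of -3.06. The part of macula densa RNA in the Ptgs2 result was not tested.

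Whether KW6002 lowered Ptgs2 in cisplatin-treated kidneys could not be settled with these libraries. Co-treated kidneys ran from 2.20 to 5.13 CPM with a median of 3.84. Of these 6 values, 4 lay within the cisplatin range and 2 lay below it. The log2 fold change was -0.58 (SE 0.26, 95% interval -1.12 to -0.04), and its adjusted p of 0.0609 did not pass. It passed within the 500s (-0.57, adjusted p = 0.0482), when only these 2 groups were fitted (-0.58, adjusted p = 0.0467), when libraries were scaled by their totals alone (-0.64, adjusted p = 0.041), with the number series as a covariate (-0.58, adjusted p = 0.0391), and in 4 of the 22 fits that left out 1 library: KW6002 replicate 6 (adjusted p = 0.0257), cisplatin replicate 5 (0.0267), co-treated replicate 5 (0.033), and co-treated replicate 4 (0.0478). With the fat marker level as a covariate it was -0.43 (adjusted p = 0.345). Against vehicle, co-treated kidneys were higher in all libraries, by 2.84 (SE 0.33, adjusted p = 1.49e-07).

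The balance between both cyclooxygenases was read from CPM per kilobase of exon, which allows levels of different genes to be compared. Ptgs2 made up 0.936, 1.70, 2.00, 1.92, and 1.71% of the summed Ptgs1 and Ptgs2 level in the vehicle kidneys and 13.6, 9.35, 11.9, 11.1, and 7.42% in the cisplatin kidneys. The groups were far apart. Co-treated kidneys spanned 6.46 to 12.6% with a median of 10.3% and overlapped the cisplatin group. KW6002 kidneys spanned 1.5 to 5.14%, and those other than replicate 6 were at most 2.15%. The plot of this share by kidney shows 4 of the 6 co-treated kidneys within the cisplatin range and 2 below it.

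**Figure D2:**
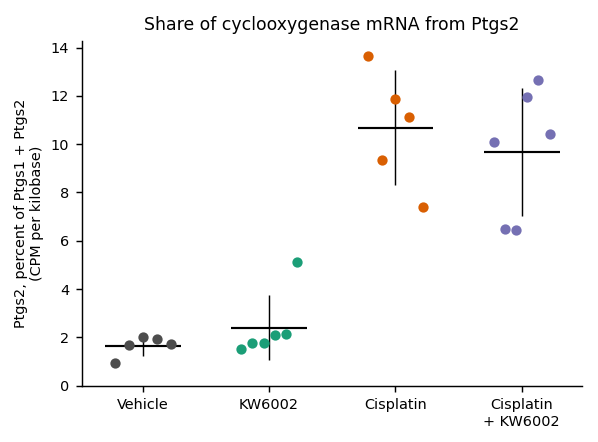
Share of Ptgs2 in the summed Ptgs1 and Ptgs2 level (vertical axis, percent, per kilobase of exon) in each of 22 kidneys, with group mean and SD. The cisplatin mean is 10.7% and the co-treated mean 9.67%, against 1.65% in vehicle and 2.41% in KW6002 kidneys.

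Ptges, the inducible membrane synthase that makes prostaglandin E2, followed a course like that of Ptgs1 with more scatter. Vehicle kidneys held 34.2, 24.6, 18.5, 24.8, and 25.6 CPM and cisplatin kidneys 40.8, 44.4, 35.0, 38.8, and 36.1 CPM. The highest vehicle kidney and the lowest cisplatin kidney were close, and the log2 fold change was 0.61 (SE 0.11, adjusted p = 4.84e-05). Co-treated kidneys lay between 27.0 and 37.7 CPM with a median of 28.6, and replicate 1 alone reached the cisplatin range. Ptges fell by 0.39 on the log2 scale from cisplatin to co-treatment (SE 0.11, adjusted p = 0.00367). The fall did not pass with the fat marker level as a covariate (-0.26, adjusted p = 0.0971). Against vehicle the co-treated group differed by 0.22 (adjusted p = 0.0845), and this difference passed without vehicle replicate 1, where it was 0.35 (adjusted p = 0.00363), without vehicle replicates 1 and 2 (0.38, adjusted p = 0.00538), with library totals alone (0.38, adjusted p = 0.00521), and with the fat marker level as a covariate (0.35, adjusted p = 0.0272). The 6 fibroblast markers summed to 190 to 332 CPM in vehicle, 696 to 892 CPM in cisplatin, and 350 to 572 CPM in co-treated kidneys. Of these markers 5 rose after cisplatin and 5 fell from cisplatin to co-treatment, as Pla2g4a, Ptgs1, and Ptges did, and their part in these results was not tested.

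Ptgds, the lipocalin-type synthase of prostaglandin D2, moved the opposite way. Vehicle kidneys held 3.08, 2.49, 4.81, 4.05, and 4.17 CPM and cisplatin kidneys 0.852, 1.41, 1.25, 1.15, and 0.963 CPM, with no overlap. Its log2 fold change was -1.72 (SE 0.22, adjusted p = 3.72e-07), which leaves 0.303 times the vehicle level. Co-treated kidneys ran from 2.11 to 4.74 CPM with a median of 3.55, each above each cisplatin kidney. Ptgds rose from cisplatin to co-treatment by 1.66 on the log2 scale (SE 0.22, adjusted p = 9.77e-07). Co-treated and vehicle kidneys overlapped, with a log2 fold change of -0.07 and a 95% interval from -0.48 to 0.35 (adjusted p = 0.792). With the fat marker level as a covariate, the change from cisplatin to co-treatment was 1.26 (adjusted p = 9.77e-05).

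Of the receptors for prostaglandin E2, Ptger3 had the largest fall after cisplatin. Ptger3 encodes the EP3 receptor, which lowers cyclic AMP and is known from the thick ascending limb and collecting duct. Vehicle kidneys held 31.5, 27.5, 80.6, 76.6, and 75.6 CPM and cisplatin kidneys 17.8, 21, 17.8, 18.8, and 20.6 CPM. The cisplatin kidneys were close to one another and all below the vehicle kidneys, of which replicates 1 and 2 were low. The log2 fold change was -1.60 (SE 0.23, adjusted p = 1.53e-06), -2.02 without those 2 vehicle libraries (adjusted p = 7.26e-12), and -1.99 within the 500s (adjusted p = 9.44e-10). Co-treated kidneys ran from 39.1 to 66.9 CPM with a median of 48.0, each above each cisplatin kidney, and the log2 fold change from cisplatin was 1.37 (SE 0.22, adjusted p = 1.6e-05). It was 1.27 without co-treated replicate 6 (adjusted p = 5.98e-05), the highest Ptger3 value of its group, whose 4 adrenal markers summed to 68.9 CPM against at most 3.10 in the other kidneys.

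Whether co-treated kidneys differed from vehicle in Ptger3 depended on the 2 low vehicle kidneys. With all libraries the log2 fold change was -0.23 (SE 0.21, 95% interval -0.67 to 0.21, adjusted p = 0.356). Without vehicle replicates 1 and 2 it was -0.64 (adjusted p = 9.47e-05), and within the 500s it was -0.61 (adjusted p = 0.000981). All 4 thick ascending limb markers fell after cisplatin, and 3 of 4 rose from cisplatin to co-treatment. Their sum was 2036 to 2367 CPM in cisplatin kidneys and 2399 to 4313 CPM in co-treated kidneys. Of 7 collecting duct markers 2 rose and 2 fell after cisplatin, and their sum was 469 to 800 CPM in vehicle, 723 to 1035 CPM in cisplatin, and 610 to 993 CPM in co-treated kidneys. The plot of Ptger3 against these markers shows the low vehicle kidneys at the lowest thick ascending limb sums and the highest fat sums of their group. Fat markers summed to 417 to 835 CPM in cisplatin and 41.3 to 393 CPM in co-treated kidneys. With the mean fat marker level as a covariate, the change of Ptger3 from cisplatin to co-treatment was 1.02 (adjusted p = 0.00163). The part of thick ascending limb or collecting duct RNA in the Ptger3 result was not tested.

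**Figure D3:**
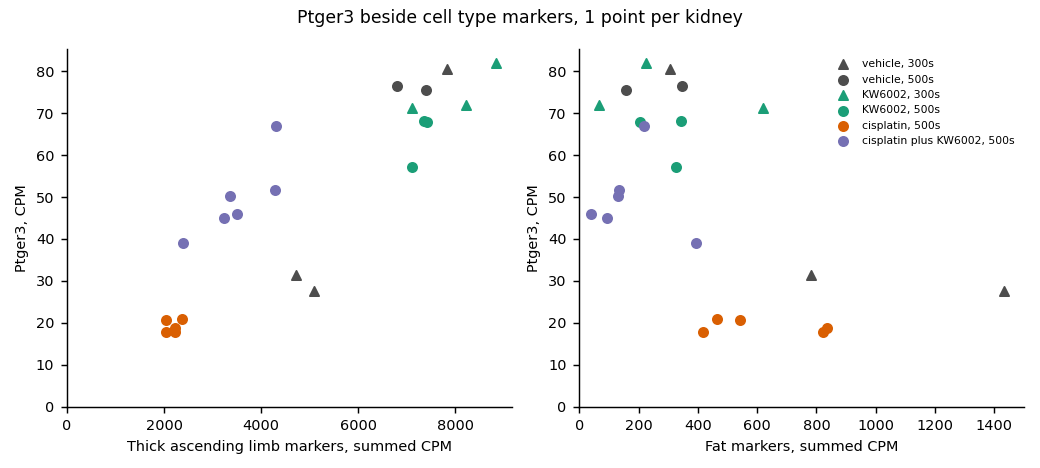
Ptger3 level in CPM (vertical axis) against the summed CPM of 4 thick ascending limb markers (left) and of 7 fat cell markers (right), with a point per kidney, colour for the group, and shape for the number series of the labels (300s or 500s). The 2 vehicle kidneys at 31.5 and 27.5 CPM of Ptger3 have 783 and 1432 CPM of fat markers.

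Ptger4 encodes the EP4 receptor, which raises cyclic AMP, and its level did not follow that of Ptger3. Vehicle kidneys held 4.99, 3.89, 3.36, 3.98, and 4.39 CPM and cisplatin kidneys 8.50, 9.27, 8.10, 6.93, and 8.21 CPM. The groups were separate, and the log2 fold change was 0.99 (SE 0.14, adjusted p = 1.41e-06). Co-treated kidneys ran from 7.08 to 11.1 CPM with a median of 8.20, and 4 of the 5 cisplatin kidneys lay within that range. Between them the log2 fold change was 0.09 with a 95% interval from -0.18 to 0.36 (adjusted p = 0.573). Against vehicle it was 1.08 (SE 0.14, adjusted p = 5.15e-07), and all co-treated libraries were higher than all vehicle libraries. Ptger4 shares 1015 exon bases with Gm15937 and 82 with Ttc33, both on the other strand, and whether reads were counted by strand is not given in the sources used here.

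Ptger1, which encodes the EP1 receptor known for raising intracellular calcium, had wide scatter without cisplatin. Vehicle kidneys held 9.78, 7.90, 23.0, 16.1, and 16.8 CPM and cisplatin kidneys 6.55, 8.84, 7.22, 7.33, and 10.4 CPM. Vehicle replicates 1 and 2 were again the lowest of their group and overlapped the cisplatin kidneys. The log2 fold change was -0.87 (SE 0.25, adjusted p = 0.00354), and -1.21 without those 2 libraries (adjusted p = 7.15e-05). Co-treated kidneys ran from 15.2 to 27.1 CPM with a median of 21.2, each above each cisplatin kidney, and the log2 fold change from cisplatin was 1.39 (SE 0.24, adjusted p = 3.62e-05). With the fat marker level as a covariate it was 0.97 (adjusted p = 0.00308). Against vehicle the co-treated group differed by 0.52 (SE 0.23, adjusted p = 0.0565). That difference passed in 3 of the 22 fits without 1 library, those without vehicle replicate 3 (0.74, adjusted p = 0.009), co-treated replicate 3 (0.60, adjusted p = 0.0348), and KW6002 replicate 3 (0.52, adjusted p = 0.0453). It also passed with library totals alone (0.68, adjusted p = 0.0128), with the number series as a covariate (0.67, adjusted p = 0.033), and in DESeq2 (0.52, adjusted p = 0.0472). It was smaller and did not pass within the 500s (0.37, adjusted p = 0.103), without vehicle replicates 1 and 2 (0.19, adjusted p = 0.491), and with the fat marker level as a covariate (0.17, adjusted p = 0.576).

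Hpgd, the dehydrogenase that starts the breakdown of prostaglandins, was lower in both groups given cisplatin. Vehicle kidneys held 12.9, 8.50, 13.6, 14.6, and 12.9 CPM and cisplatin kidneys 8.23, 10.5, 9.09, 9.76, and 9.63 CPM. Vehicle replicate 2 lay inside the cisplatin range and the other 4 vehicle kidneys above it. Hpgd fell by a log2 fold change of -0.41 (SE 0.13, adjusted p = 0.00895). This fall depended on scaling: with library totals alone, which moved the median of all genes to 0.20, it was -0.19 (adjusted p = 0.189). Co-treated kidneys ran from 7.03 to 10.6 CPM with a median of 8.32 and overlapped the cisplatin kidneys (log2 fold change -0.14, 95% interval -0.41 to 0.12, adjusted p = 0.351). Against vehicle they were lower by a log2 fold change of -0.55 (SE 0.13, adjusted p = 0.00076), or -0.39 with library totals alone (adjusted p = 0.00828).

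From cisplatin to co-treatment, 3 members rose (Ptgds, Ptger1, and Ptger3), 3 fell (Pla2g4a, Ptgs1, and Ptges), and Ptgs2, Ptger4, and Hpgd did not pass. Over all genes 55.8% passed in this comparison, 28.6% higher and 27.2% lower. The 3 members that rose also met the stricter call, as did 10.3% of genes (4.65% higher and 5.66% lower), and no member met it downward. Groups did not overlap for 4 members (Ptgs1, Ptgds, Ptger1, and Ptger3), as for 37.8% of genes. The median log2 fold change of the 9 was -0.14, against 0.01 over all genes. This comparison shares the cisplatin kidneys with the one above, so that a high or low cisplatin group moves both in opposite directions, and the values are given side by side without a test of their relation.

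Against vehicle, co-treated kidneys were higher for 4 members (Pla2g4a, Ptgs1, Ptgs2, and Ptger4) and lower for Hpgd, where 59.7% of genes passed, 29.8% higher and 29.9% lower. Ptges, Ptgds, Ptger1, and Ptger3 did not pass. Of the 9, Ptgs2 and Ptger4 met the stricter call, both higher, as did 13.4% of genes (5.83% higher and 7.59% lower). The same pair had groups without overlap, as did 37.5% of genes. The plot of the 4 comparisons places these changes beside one another.

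**Figure D4:**
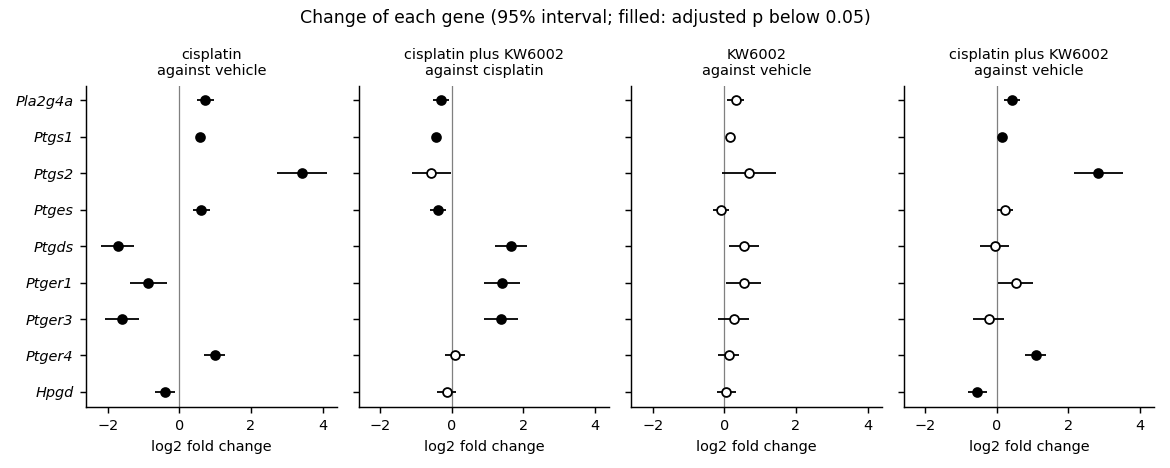
Log2 fold change of each gene (horizontal axis) with its 95% interval in 4 comparisons of the same fit. Filled points passed at an adjusted p below 0.05 over 17131 genes and open points did not. The intervals are for single genes and not adjusted, so that of Ptgs2 from cisplatin to co-treatment (-1.12 to -0.04) excludes 0 although its adjusted p is 0.0609.

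KW6002 without cisplatin changed no member at an adjusted p below 0.05 in edgeR, where 0.0175% of genes passed. DESeq2 also passed 0 of the 9. At an unadjusted p below 0.05, 4 members were higher and none lower, against 11.3% of all genes in either direction. They were Ptgs1 by 0.16 (adjusted p = 0.298), Pla2g4a by 0.31 (adjusted p = 0.303), Ptgds by 0.54 (adjusted p = 0.312), and Ptger1 by 0.54 (adjusted p = 0.378). KW6002 and vehicle kidneys overlapped for all 9 members, where 1.38% of genes had groups without overlap. The differences were smaller without vehicle replicates 1 and 2: 0.09 for Ptgs1, 0.16 for Pla2g4a, 0.32 for Ptgds, and 0.20 for Ptger1, with adjusted p from 0.616 to 0.814. KW6002 kidneys ranged from 57.3 to 82.0 CPM of Ptger3, with a median of 69.6, and none was as low as the 2 low vehicle kidneys. For Ptgs2 they ranged from 0.505 to 1.80 CPM with a median of 0.675. Replicate 6, with 47 reads, was the highest of them.

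The effect of KW6002 differed with and without cisplatin for 6 members by a test of the difference itself, as for 42.7% of genes (22.8% higher and 19.9% lower). At the stricter call the count was 2, Ptgds and Ptger3, both higher, against 8.58% of genes (4.24% higher and 4.33% lower). The effect of KW6002 with cisplatin minus that without was, on the log2 scale, -0.59 for Ptgs1 (SE 0.08, adjusted p = 3.8e-06), -0.62 for Pla2g4a (SE 0.15, adjusted p = 0.00259), and -1.26 for Ptgs2 (SE 0.44, adjusted p = 0.0255). It was 1.11 for Ptgds (SE 0.29, adjusted p = 0.00355), 1.12 for Ptger3 (SE 0.30, adjusted p = 0.00478), and 0.85 for Ptger1 (SE 0.33, adjusted p = 0.0405). Within the 500s, 5 of the 6 passed, and Ptgs2 had -1.51 (adjusted p = 0.057). The Ptgs2 difference also did not pass without KW6002 replicate 6 (-0.90, adjusted p = 0.0641), vehicle replicate 1 (-1.10, adjusted p = 0.0557), or cisplatin replicate 1 (-1.11, adjusted p = 0.0511), without vehicle replicates 1 and 2 together (-1.01, adjusted p = 0.104), or with the fat marker level as a covariate (-1.17, adjusted p = 0.0512). The Ptger1 difference did not pass in 14 of the 22 fits without 1 library, where it ran from 0.64 to 0.86 with adjusted p from 0.0504 to 0.109. The exceptions, in which it passed, were the fits without vehicle replicates 1 or 2, KW6002 replicates 2 or 3, cisplatin replicates 2 or 5, or co-treated replicates 1 or 3. It also did not pass with library totals alone (0.78, adjusted p = 0.0583) or with the fat marker level as a covariate (0.62, adjusted p = 0.0989). Within the 500s it was larger, at 1.41 (adjusted p = 0.000292), as it was without vehicle replicates 1 and 2 together, at 1.19 (adjusted p = 0.00219). For Ptges the difference was -0.30 (adjusted p = 0.123), and it passed without vehicle replicate 1 (-0.42, adjusted p = 0.0119), vehicle replicates 1 and 2 together (-0.45, adjusted p = 0.0129), or co-treated replicate 1 (-0.38, adjusted p = 0.0371).

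Within vehicle kidneys, the order of mean level per kilobase of exon was Ptger3 at 10.3 CPM per kilobase, Hpgd at 7.42, Ptgs1 at 6.62, Ptges at 6.49, Ptger1 at 2.69, Ptgds at 2.25, Pla2g4a at 1.56, Ptger4 at 0.620, and Ptgs2 at 0.112. The kidneys' ranges of Ptger3, Hpgd, Ptgs1, and Ptges overlapped with one another, as did those of Ptger1, Ptgds, and Pla2g4a. Ptger4 (0.505 to 0.750 CPM per kilobase) and Ptgs2 (0.0636 to 0.147) each stood below the rest. After cisplatin, Ptges and Ptgs1, both at 9.92 CPM per kilobase, led the order with overlapping ranges, followed by Hpgd at 5.61 and Ptger3 at 3.38. Ptgs2, at 1.2 CPM per kilobase, was no longer separate from Ptger4 at 1.23, and Ptgds was last at 0.682. In co-treated kidneys Ptger3 was again first at 8.75 CPM per kilobase, with a range that overlapped those of Ptges at 7.58 and Ptgs1 at 7.36. In KW6002 kidneys the order was that of vehicle kidneys, from 12.3 CPM per kilobase for Ptger3 to 0.183 for Ptgs2.

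The genes whose log2 CPM was most like that of a member over the 22 libraries were named as a description, since the libraries share their 4 groups. The 2 highest Pearson correlations were with Srgap3 (0.92) and Il17re (0.91) for Pla2g4a, Lrrk1 (0.95) and Tmem119 (0.95) for Ptgs1, 1810055G02Rik (0.97) and Emd (0.97) for Ptgs2, and Vstm4 (0.92) and Fkbp7 (0.91) for Ptges. They were Ppp1r1a (0.96) and Slc26a10 (0.96) for Ptgds, Methig1 (0.92) and Aqp1 (0.91) for Ptger1, Ppp1r1b (0.97) and Cyfip2 (0.97) for Ptger3, C7 (0.95) and Aldh1a2 (0.94) for Ptger4, and Nfib (0.86) and Reep5 (0.86) for Hpgd. With Spearman's rank correlation, 4 of these 18 genes stayed among the top 2 of their member.

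The other genes of the pathway came from a list of 47 phospholipases, synthases, receptors, transporters, breakdown enzymes, and lipoxygenase genes, of which 46 were in the data and 36 had enough reads to be tested. After cisplatin 13 rose, 13 fell, and 10 did not pass, where 34.6% of all genes were higher and 35.9% lower, and the median log2 fold change was 0.08, against -0.01 over all genes tested. At the stricter call 8 were higher and 6 lower, against 12.1% of genes in each direction. From cisplatin to co-treatment 5 rose, 13 fell, and 18 did not pass, where 28.6% of all genes were higher and 27.2% lower. Against vehicle 7 were higher and 13 lower in co-treated kidneys, where the shares of all genes were 29.8% and 29.9%. With KW6002 alone 0 of the 36 passed in edgeR and 8 had an unadjusted p below 0.05, as did 11.3% of all genes. In DESeq2 1 passed, Akr1b3 (log2 fold change 1.30, adjusted p = 0.0086), as it did in edgeR without vehicle replicate 3 (1.39, adjusted p = 0.0498).

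Among the 11 other phospholipase genes tested, 4 rose and 3 fell after cisplatin, where 34.6% of all genes were higher and 35.9% lower. Pla2g7, which encodes the enzyme that inactivates platelet-activating factor, rose from 21.2 ± 2.62 CPM (SD, n = 5) in vehicle to 49.0 ± 7.10 CPM (SD, n = 5) in cisplatin kidneys and was at 20.3 ± 2.42 CPM (SD, n = 6) in co-treated kidneys, with log2 fold changes of 1.21 (SE 0.11) and -1.27 (SE 0.10). Pla2g12a, a secreted phospholipase, rose from 18.3 ± 1.94 to 39.3 ± 3.96 CPM and was at 27.7 ± 2.70 CPM after co-treatment. Pla2g5, another secreted phospholipase, was at 11.2 ± 2.09 CPM in vehicle, 2.23 ± 0.675 CPM in cisplatin, and 7.01 ± 0.682 CPM in co-treated kidneys (log2 fold changes -2.33 and 1.66). Pla2g3 fell by 1.36 on the log2 scale with overlapping groups (adjusted p = 0.00254). Pla2g2e had at most 5 reads in any vehicle library and 33 in the highest cisplatin library, so its log2 fold changes of 3.18 and -1.55 rest on few reads. The second did not pass with the fat marker level as a covariate (-1.17, adjusted p = 0.0539).

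Of the 9 other terminal synthase genes, 1 rose and 3 fell after cisplatin, where 34.6% of all genes were higher and 35.9% lower. Cbr1, a carbonyl reductase that can act on prostaglandin E2 and on many other compounds, rose from 39.0 ± 1.64 to 451 ± 37.9 CPM and was at 396 ± 51.2 CPM in co-treated kidneys. Its log2 fold change after cisplatin was 3.53 (SE 0.10, adjusted p = 6.33e-18), and it differed from cisplatin to co-treatment by -0.19 (adjusted p = 0.0665). That difference passed without cisplatin replicate 1 (-0.23, adjusted p = 0.0368) and without co-treated replicate 2 (-0.22, adjusted p = 0.0451) or 4 (-0.23, adjusted p = 0.0253). It also passed with the fat marker level as a covariate (-0.32, adjusted p = 0.0104), with library totals alone (-0.24, adjusted p = 0.0175), and with at least 10 counts asked of every library (-0.20, adjusted p = 0.0463). Tbxas1, the thromboxane synthase, fell from 19.3 ± 3.64 to 2.10 ± 0.647 CPM (log2 fold change -3.20, SE 0.23, adjusted p = 1.87e-11) and was at 5.67 ± 0.952 CPM after co-treatment (1.44, SE 0.22, adjusted p = 9.13e-06).

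Of the 4 other receptor genes tested, 1 rose and 2 fell after cisplatin, where 34.6% of all genes were higher and 35.9% lower. Ptgfr, the receptor for prostaglandin F2 alpha, fell from 36.7 ± 3.77 to 17.8 ± 2.03 CPM and was at 28.4 ± 1.82 CPM in co-treated kidneys (log2 fold changes -1.04 and 0.67). Among the 7 transport and breakdown genes, 4 rose and 3 fell after cisplatin, against the same shares of all genes. Slco2a1, the prostaglandin uptake transporter, rose from 48.2 ± 5.31 to 192 ± 28.2 CPM (log2 fold change 1.99, SE 0.10, adjusted p = 2.87e-14) and was at 93.5 ± 10.4 CPM after co-treatment (-1.04, SE 0.09, adjusted p = 2.05e-09). Abcc4, an efflux pump that carries prostaglandins and many drugs, rose from 77.1 ± 6.12 to 196 ± 36.6 CPM and was at 144 ± 16.4 CPM after co-treatment. Akr1c14 fell from 244 ± 61.5 to 36.1 ± 10.2 CPM and Cyp4f14 from 1.55 ± 0.399 to 0.189 ± 0.0893 CPM. From cisplatin to co-treatment Cyp4f14 rose, with log2 fold changes of 1.69 to 2.26 over the alternative fits. Akr1c14 did not pass in that comparison (0.07 to 0.34). The cisplatin level of Cyp4f14 was below the 0.306 CPM of the read filter, so its changes rest on few reads. Both genes belong to families of similar genes whose reads can be hard to assign.

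All 5 lipoxygenase branch genes that were tested changed after cisplatin, 3 upward and 2 downward, where 70.5% of all genes passed, 34.6% higher and 35.9% lower. Alox5, which starts leukotriene synthesis, rose from 0.647 ± 0.308 CPM in vehicle to 29.3 ± 4.63 CPM in cisplatin kidneys and was at 3.20 ± 1.44 CPM in co-treated kidneys, with log2 fold changes of 5.49 (SE 0.29, adjusted p = 1.66e-13) and -3.19 (SE 0.23, adjusted p = 1.34e-10). Ltc4s, the leukotriene C4 synthase, rose from 6.71 ± 2.47 to 16.3 ± 2.10 CPM and was at 18.3 ± 3.18 CPM after co-treatment, with a log2 fold change between the cisplatin groups of 0.17 (adjusted p = 0.432). The 7 macrophage markers summed to 162 to 313 CPM in vehicle, 208 to 287 CPM in cisplatin, and 120 to 177 CPM in co-treated kidneys, and 1 of the 7 rose and 2 fell after cisplatin. From cisplatin to co-treatment 1 of them rose and 1 fell. The 7 neutrophil markers summed to 4.33 to 18.1 CPM in vehicle, 6.08 to 13.2 CPM in cisplatin, and 4.21 to 8.15 CPM in co-treated kidneys. Of the 6 tested, 3 rose and none fell after cisplatin, and 4 fell and none rose from cisplatin to co-treatment. The part of white blood cell RNA in these results was not tested. The plot of the pathway genes shows both cisplatin groups against vehicle.

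**Figure D5:**
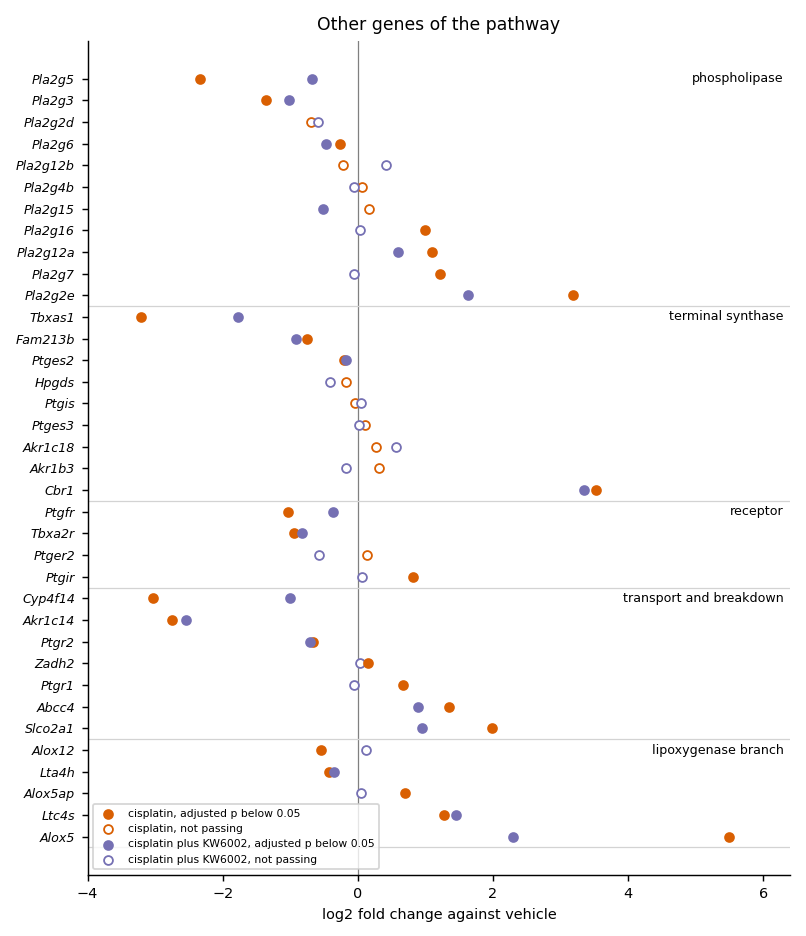
Log2 fold change against vehicle (horizontal axis) of the 36 other pathway genes tested, grouped by role, for cisplatin (orange) and co-treated (purple) kidneys, with filled points for an adjusted p below 0.05. Alox5 lies at 5.49 and 2.30, Cbr1 at 3.53 and 3.34, and Tbxas1 at -3.20 and -1.77.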

How the data were processed

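RNA was measured in 22 mouse kidneys. The authors prepared stranded mRNA libraries, aligned reads to mm10 with STAR, and counted uniquely mapped reads per gene with HTSeq 0.6.1p1 in union mode, after base calling with bcl2fastq 2.17.1.14. The deposited unit is the raw count per gene, not normalized. The strand setting of the counting is not given in the sources used here. Groups came from the sample labels, and 66 further columns without name or value were not used. Symbols, positions, and exon lengths came from GENCODE M21, which named 32824 of the 32858 genes, and promoter windows from RefSeq GRCm38.p6.

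Genes were kept by edgeR's filterByExpr (a minimum count of 10 at the median library size, 0.306 CPM, in at least 5 libraries, and a total of 15), which left 17131 genes. All 22 libraries were fitted together, with 1 mean per group, by edgeR 4.0.16 (TMM factors, quasi-likelihood F test, R 4.3.3). P values were adjusted by Benjamini-Hochberg over all genes tested, tests were two-sided, and 95% intervals are for single genes. The biological coefficient of variation was 0.129. Replicates are separate mice. In no group did a pair of libraries agree within sampling noise, the lowest chi-square per degree of freedom being 2.97. On simulated counts for cisplatin against vehicle, with 16758 genes in the step, 100 of 100 genes changed by a log2 fold change of 1 and 100 of 100 changed by 2 were recovered, and 13 of 16558 unchanged genes passed. The changed genes were drawn from those with higher counts, every gene was given the same dispersion, and most genes were unchanged. The recovery therefore does not cover a gene with few reads, such as Ptgs2 in vehicle kidneys, or one with wide scatter.

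The 9 members, the pathway list, the marker lists, and the tests were chosen with earlier results of these data known. All 9 members were described in full. Pathway genes were named where the adjusted p was below 0.01 and the log2 fold change beyond 1 in cisplatin against vehicle or in co-treatment against cisplatin, and Akr1b3 was named after its values were seen. Likeness to each member was Pearson's correlation of log2 CPM (prior count 2). Alternatives were DESeq2 1.42.0, other scaling factors, other filters on low counts, fits of the compared groups alone, a replicate block, the number series, a fat marker covariate, other thresholds, and leaving out each library. Leaving out vehicle replicates 1 and 2 together was chosen after seeing the data. The replicate numbers were checked for pairing, and same-numbered libraries did not all deviate together.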

Additional observations from a re-analysis of the deposited data

Results flagged for a closer look

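In 5 of 40 groups of values tested, the highest or lowest kidney stood far from the rest of its group by Dixon's ratio. For independent groups chance gives about 1 in 20. The 40 groups are not independent, so the count cannot be set against that rate. Every measure uses the same kidneys, and the share of Ptgs2 is computed from Ptgs1 and Ptgs2 themselves. Ptgs2 in KW6002 replicate 6 was 1.80 CPM, the highest of its group, and the share of Ptgs2 in the cyclooxygenase level of that kidney was 5.14%, also the highest. That share was lowest in vehicle replicate 1, at 0.936%. Ptges in co-treated replicate 1 was 37.7 CPM, the highest of its group. Hpgd in vehicle replicate 2 was 8.50 CPM, the lowest of its group.

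The effect of KW6002 with cisplatin differed from its effect without cisplatin, by edgeR's test of that difference, for 6 members. Over all genes tested 42.7% passed it, 22.8% higher and 19.9% lower. The log2 differences were -0.59 for Ptgs1, -0.62 for Pla2g4a, -1.26 for Ptgs2, 1.11 for Ptgds, 0.85 for Ptger1, and 1.12 for Ptger3. Those of Ptgs2 and Ptger1 did not pass without some single libraries, with the values given above.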

How the results depend on the processing

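No value of a member or named pathway gene changed direction while past the threshold. By edgeR, 9, 6, 0, and 5 of the 9 members passed for cisplatin against vehicle, co-treatment against cisplatin, KW6002 against vehicle, and co-treatment against vehicle, and 6 for the difference of KW6002 effects. Of the 36 pathway genes 26, 18, 0, 20, and 16 passed, in the same order. Over all genes tested the shares were 70.5, 55.8, 0.0175, 59.7, and 42.7%. Tested against a log2 fold change of 1, the counts were 3, 1, 0, 1, and 0 members and 10, 4, 0, 5, and 4 pathway genes. Shares of all genes were not computed for that test or for the fits without 1 library, so those counts lack this reference. At the stricter call of the report the counts were 3, 3, 0, 2, and 2 members and 14, 7, 0, 7, and 7 pathway genes. The shares of all genes at that call were 24.1, 10.3, 0, 13.4, and 8.58%. DESeq2 passed 1 pathway gene for KW6002 against vehicle. Without 1 library at a time the counts ran from 9 to 9, 5 to 7, 0 to 0, 4 to 6, and 4 to 7 members, and from 25 to 26, 16 to 19, 0 to 1, 19 to 22, and 14 to 16 pathway genes. The mean share of Ptgs2 then ran from 1.57 to 1.83% in vehicle, 1.86 to 2.59% in KW6002, 9.94 to 11.5% in cisplatin, and 9.08 to 10.3% in co-treated kidneys. By Spearman's correlation 4 of 18 similar genes stayed among the top. The cause of these shifts was not tested. Depth limits Ptgs2 most in vehicle kidneys, where libraries held 9 to 20 reads.

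Whether the labels' replicate numbers pair the kidneys was not settled: same-numbered libraries had deviations correlated from -0.175 to 0.405. The highest value was between KW6002 and vehicle, where same-numbered kidneys are also of the same number series, so it can neither show nor exclude pairing. With the replicate block 9, 7, 0, 5, and 5 members and 26, 18, 0, 20, and 16 pathway genes passed, Ptgs2 passing from cisplatin to co-treatment (-0.73, adjusted p = 0.0227) and the Ptger1 difference of effects not passing (0.85, adjusted p = 0.0518). The shares of all genes passing with this block were not computed.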
